A study of Rattus norvegicus with 35 samples.

Results

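The 9 genes followed here encode enzymes that make serine, move its carbon onto folate or make asparagine: Phgdh, Psat1 and Psph for serine, Shmt1 and Shmt2 for the step from serine to glycine, Mthfd1, Mthfd2 and Aldh1l2 for folate-bound carbon, and Asns for asparagine. They were taken by gene symbol from the Affymetrix rat RAE230.2 array and were 9 of the 14217 genes that it names by a single symbol, each by 1 probe set, so that no choice between probe sets arose. The enzymes were picked with the difference between both lesions at 12 h in view, so that difference is described below without a test. Comparisons of the 12 h groups with naive use the same 12 h arrays. Their p-values are therefore not independent of how the enzymes were picked. Retinas came from adult female Sprague-Dawley rats. Naive animals had no operation (5 arrays). In the IONT group the left optic nerve was transected in the orbit close to the optic disc, and retinas were taken at 12 h, 48 h and 7 d (3 arrays per time) and at 24 h, 3 d and 15 d (2 arrays per time). In the IONC group the whole nerve was crushed farther from the disc, with 3 arrays at each of these times except 15 d, which was not analysed here. Each array was hybridized with RNA pooled from 4 whole retinas of different rats, 35 arrays in all. No sham-operated group was analysed here, so nerve injury cannot be told apart from anesthesia and orbital surgery. In whole retina, fewer cells of a type and less RNA per cell cannot be told apart either.

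Serine is built from an intermediate of glycolysis by Phgdh, the phosphoglycerate dehydrogenase that commits carbon to the pathway, then by the transaminase Psat1 and the phosphatase Psph. Serine hydroxymethyltransferases split serine into glycine and a carbon unit that is carried by tetrahydrofolate, Shmt1 in the cytosol and Shmt2 in mitochondria, and the Mthfd enzymes oxidize and exchange that unit for use in nucleotide synthesis. In the retina serine made by Müller glia is known to feed glycine, D-serine and lipid synthesis. Asns, asparagine synthetase, and several of the other enzymes are textbook targets of Atf4, the transcription factor that cells translate when amino acids are short or the endoplasmic reticulum is stressed.

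Values are log2 signals after GCRMA normalization. Calls rest on limma and needed 3 things: an adjusted p under 0.01, a positive B (the log odds that a gene changed) and a fold of 1.2 or more. Array IONC 12 h replicate 2 stood apart from the rest: its median correlation with the other arrays was 0.871, against 0.962 to 0.992 for the other 34, and the SD of its signal over probe sets was 2.30 against 2.89 to 3.03. The arrays also fell into 2 sets by the gap between the 3′ and 5′ control probe sets of β-actin, which widens when RNA or its labelling is cut short. That gap was 1.53 to 1.93 in 27 arrays and 2.61 to 3.65 in 8 arrays, namely naive replicates 4 and 5 and every IONT array at 24 h, 3 d and 15 d. Some calls were ended by leaving out the first array or by adding the array set to the model. For the enzymes and pathway genes named below this is given beside the call, unless stated otherwise. Markers of the retina's own cells were present, and the ganglion cell markers fell with time: 6 of 7 were called lower at 7 d after either lesion and at 15 d after IONT, and 0 of 7 at 12 h. The 6 markers of dividing cells measured gave no call in any group. Of 4 markers of astrocytes and reactive glia, Gfap and Serpina3n were called higher at 12 h, 24 h and 48 h after both lesions (neither at 24 h after IONT with array set in the model). Of 7 markers of microglia and macrophages at most 2 were called higher in a group (Aif1 and Csf1r), or 3 with P2ry12 when IONC 12 h replicate 2 was left out. With array set in the model Csf1r was the only one of them called in any group. The part of these cells in the enzymes' values was not tested.

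**Figure D1:**
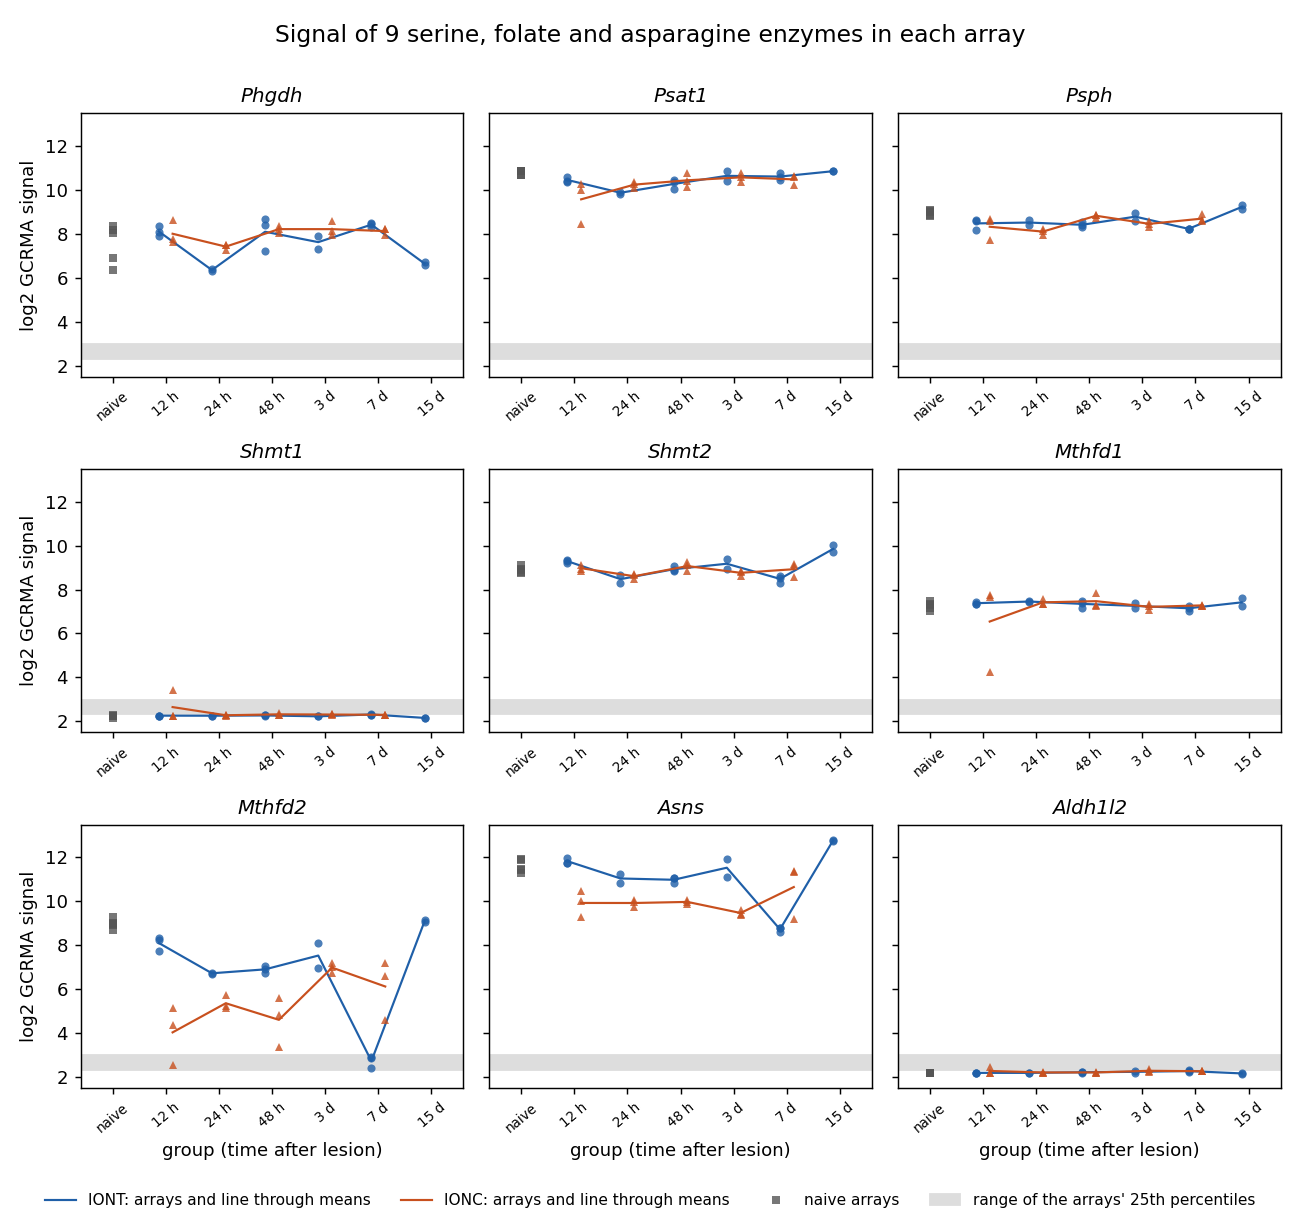
log2 GCRMA signal (vertical axis) of each enzyme in every array of each group (horizontal axis). Squares are naive arrays, circles IONT arrays and triangles IONC arrays, lines join the group means, and the grey band is the range of the arrays' 25th percentiles. Mthfd2 and Asns move far from naive, Shmt1 and Aldh1l2 lie at the lower end of the arrays throughout.

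Mthfd2, the mitochondrial methylenetetrahydrofolate dehydrogenase, showed the widest range of the 9 enzymes, from 2.41 to 9.27 across the arrays. The naive arrays held 8.96, 8.99, 9.27, 8.91 and 8.68. The last 2 are those of the second array set and were the lowest. After IONC the signal was already low at 12 h, with 5.16, 2.55 and 4.38 in the 3 arrays, of which the 2.55 is replicate 2. The IONC arrays held 5.74, 5.12 and 5.21 at 24 h and 5.58, 4.84 and 3.38 at 48 h. They stood at 6.74, 7.02 and 7.18 at 3 d and at 4.57, 6.58 and 7.21 at 7 d. All 15 IONC arrays thus lay below all 5 naive arrays, and the group means were lowest at 12 h to 48 h.

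After IONT the signal of Mthfd2 followed another course. It was 7.72, 8.35 and 8.24 at 12 h, then 6.71 and 6.74 at 24 h, 6.74, 7.06 and 6.91 at 48 h, and 6.94 and 8.12 at 3 d. At 7 d the 3 IONT arrays held 2.90, 2.41 and 2.86, which is at the 21.1 to 36.9 percentile of their own arrays, close to the range of the arrays' 25th percentiles (2.31 to 2.99). At 15 d the signal was back at 9.05 and 9.14, inside the naive range. The 13 IONT arrays from 12 h to 7 d all lay below every naive array, and the 2 arrays at 15 d did not. Consecutive times after IONT alternate between the array sets, so each step of this course is also a change of array set.

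Against naive, Mthfd2 fell by 6.24 ± 0.50 (SE) on the log2 scale at 7 d after IONT, a 75.6-fold lower signal (adjusted p = 1.66e-08). Since the signal there was at the lower end of the arrays, the fold may be understated. After IONC, in the 12 h arrays that the enzymes were picked on, the fall was 30.5-fold (log2 change -4.93 ± 0.50, adjusted p = 2.98e-07). It was 12.2-fold at 24 h (-3.60 ± 0.50, adjusted p = 0.000109) and 20.5-fold at 48 h (-4.36 ± 0.50, adjusted p = 7.77e-06). These 4 calls were kept in all 48 alternative settings tried, and without IONC 12 h replicate 2 the fall at 12 h was -4.19. At 7 d after IONC Mthfd2 fell by 2.84 ± 0.50 (adjusted p = 0.00184), a call that rested on replicate 1 (4.57): without it the change was -2.07 (adjusted p = 0.0478). At 3 d after IONC the change of -1.98 ± 0.50 was not called (adjusted p = 0.0396), but was with IONC 12 h replicate 2 left out (adjusted p = 0.00352).

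The lower Mthfd2 signals seen after IONT at 24 h and 48 h, -2.24 ± 0.57 and -2.06 ± 0.50, also missed the threshold in the fit of all arrays (adjusted p = 0.0183 and 0.0129). With IONC 12 h replicate 2 left out, which lowers the spread that all groups share in the fit, both passed (adjusted p = 0.00398 and 0.00211). They were not called with array set in the model (adjusted p = 0.171 and 0.0296). The changes at 12 h (-0.86 ± 0.50) and 3 d (-1.43 ± 0.57) after IONT were not called, and the change at 15 d was 0.13 ± 0.57.

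The sequence before the start of Mthfd2 is shown because this gene moved most. These are the 250 bases upstream of the RefSeq start, on the minus strand at chr4:117380351-117380600 of GRCr8, with CCAAT and its complement ATTGG in capitals, a motif looked for after the sequence had been seen.
Mthfd2: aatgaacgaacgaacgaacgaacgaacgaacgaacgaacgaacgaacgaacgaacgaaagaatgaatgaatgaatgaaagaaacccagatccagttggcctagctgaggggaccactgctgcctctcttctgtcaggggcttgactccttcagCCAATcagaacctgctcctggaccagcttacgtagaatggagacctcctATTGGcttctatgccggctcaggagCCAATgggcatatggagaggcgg
The window opens with a run of gaac repeats and holds 3 CCAAT letters on either strand. Of the 33469 promoter windows in the table, 34.0% hold at least 1 and 2.52% at least 3, and 4 of the 7 enzymes with a window hold at least 1 (Phgdh, Psat1, Shmt1 and Mthfd2).

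Asns, which moves an amide group from glutamine to aspartate, was the other enzyme called at several times. The naive arrays held 11.30, 11.49, 11.44, 11.91 and 11.95, the last 2 being those of the second array set. After IONC the arrays held 10.46, 9.29 and 10.04 at 12 h, 10.08, 9.95 and 9.74 at 24 h, 10.08, 9.96 and 9.89 at 48 h and 9.39, 9.42 and 9.60 at 3 d, all below every naive array. At 7 d replicate 1 was still low at 9.21 while the other two were at 11.40 and 11.35, within the naive range. The same array was the lowest of its group for Mthfd2.

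After IONT, Asns was at 11.77, 11.97 and 11.75 at 12 h, 10.82 and 11.27 at 24 h, 10.82, 11.08 and 11.06 at 48 h and 11.13 and 11.94 at 3 d, close to or just under naive. At 7 d all 3 arrays were low, at 8.81, 8.59 and 8.78. At 15 d both arrays were above every naive array, at 12.81 and 12.74. Each step of this course is again also a change of array set.

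Asns fell by 2.89 ± 0.33 at 7 d after IONT, 7.41-fold (adjusted p = 4.08e-06), a call kept in all 48 alternatives. After IONC the falls were 3.12-fold to 4.42-fold: -1.69 ± 0.33 at 12 h (adjusted p = 0.000962), and at 24 h likewise -1.69 ± 0.33 (adjusted p = 0.00336). The change was -1.64 ± 0.33 at 48 h (adjusted p = 0.00371), and by 3 d it had reached -2.15 ± 0.33 (adjusted p = 0.000676). The fall at 12 h was -1.37 without IONC 12 h replicate 2 and no longer called (adjusted p = 0.0134). With array set in the model the falls at 24 h and 48 h were -1.48 and -1.43 and not called (adjusted p = 0.0285 and 0.0256). The one at 12 h was -1.48 (adjusted p = 0.009) and not called either, because B was not above 0, so that of these 4 calls the one at 3 d stood. Against naive arrays of the first array set alone none of the 4 stood. There the change at 3 d was -1.94 (adjusted p = 0.0156). None stood in a separate fit for each lesion either (adjusted p = 0.0208 at 3 d). The change of -0.96 ± 0.33 at 7 d after IONC (adjusted p = 0.16) and the higher signal of 1.16 ± 0.37 at 15 d after IONT (adjusted p = 0.05) did not pass.

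The enzymes that make serine itself moved less. Psat1 was at 10.67 to 10.89 in the naive arrays and at 9.99, 8.45 and 10.29 at 12 h after IONC, all below naive, with replicate 2 lowest. It fell by 1.22 ± 0.25 there, 2.32-fold (adjusted p = 0.00146). Without that replicate the change was -0.65 (adjusted p = 0.00743) and was not called, because B was not above 0. At 24 h after IONT the 2 arrays held 9.83 and 9.93, a change of -0.92 ± 0.28 that was not called (adjusted p = 0.0485) but was without IONC 12 h replicate 2 (adjusted p = 0.000401). In the other 9 groups no change of Psat1 was called, and the values ran from -0.55 to 0.07.

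Psph was at 8.84 to 9.10 in the naive arrays. At 7 d after IONT the 3 arrays held 8.23, 8.24 and 8.24, and Psph fell by 0.74 ± 0.15, 1.67-fold (adjusted p = 0.00605). At 24 h after IONC they held 8.14, 7.96 and 8.22, and Psph fell by 0.86 ± 0.15, 1.82-fold (adjusted p = 0.00161). All of these arrays lay below the naive range. With array set in the model the changes were -0.70 and -0.83, and neither call stood (adjusted p = 0.0338 and 0.01). At 12 h after IONC the 3 arrays held 8.59, 7.70 and 8.69, also below the naive range, of which the 7.70 is replicate 2. The change there of -0.64 ± 0.15 (adjusted p = 0.00596) was not called, because B was not above 0. Without IONC 12 h replicate 2 Psph was also called lower at 12 h and 48 h after IONT and at 3 d after IONC, with -0.49, -0.55 and -0.51.

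Phgdh gave no call in any group in the fit of all arrays. Its signal moved with the array set: naive replicates 1 to 3 held 8.36, 8.03 and 8.17, and naive replicates 4 and 5 held 6.34 and 6.91. The IONT arrays of the second set were also among the lowest, at 6.41 and 6.30 at 24 h and 6.73 and 6.57 at 15 d, though at 7.33 and 7.92 at 3 d. The change of -1.21 ± 0.40 at 24 h after IONT (adjusted p = 0.0718) was -0.27 with array set in the model, and the one of -0.91 ± 0.40 at 15 d was 0.03. Settings that gave naive replicates 4 and 5 less part did call Phgdh lower. At 24 h these were leaving out naive replicate 4 (-1.51) and adding replicate number as a term (-1.90), the latter also at 15 d (-1.60). With array weights it was called lower at 24 h too (-1.73). The IONC arrays, all of the first set, held 7.27 to 8.62.

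Shmt2 was called once, and upward. It was at 8.74 to 9.14 in the naive arrays and at 10.01 and 9.70 at 15 d after IONT, a rise of 0.95 ± 0.15, 1.93-fold (adjusted p = 0.000157). It was 0.83 against naive arrays 4 and 5 alone, which share its array set, and then not called (adjusted p = 0.167). In the other 10 groups the changes lay between -0.43 and 0.39. At 7 d after IONT, where Mthfd2 and Asns were lowest, Shmt2 was at 8.62, 8.32 and 8.53, all below naive, with a change of -0.41 ± 0.13 (adjusted p = 0.0842).

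Mthfd1, the cytosolic enzyme that joins 3 folate reactions in a single protein, stayed between 7.02 and 7.83 in 34 of the 35 arrays and gave no call. The exception was IONC 12 h replicate 2, at 4.23 against 7.66 and 7.75 in the other two arrays of its group. Its change at 12 h after IONC was -0.73 ± 0.43 with that array and 0.43 without it. Shmt1 lay at 2.15 to 2.38 in 34 arrays and at 3.43 in that same array, and Aldh1l2, the mitochondrial formyltetrahydrofolate dehydrogenase, lay at 2.14 to 2.44 in all 35. The arrays' 5th percentiles ran from 1.96 to 2.26 and their 25th percentiles from 2.31 to 2.99, so both probe sets stayed at the lower end of the array, where a fall could not have been seen.

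**Figure D2:**
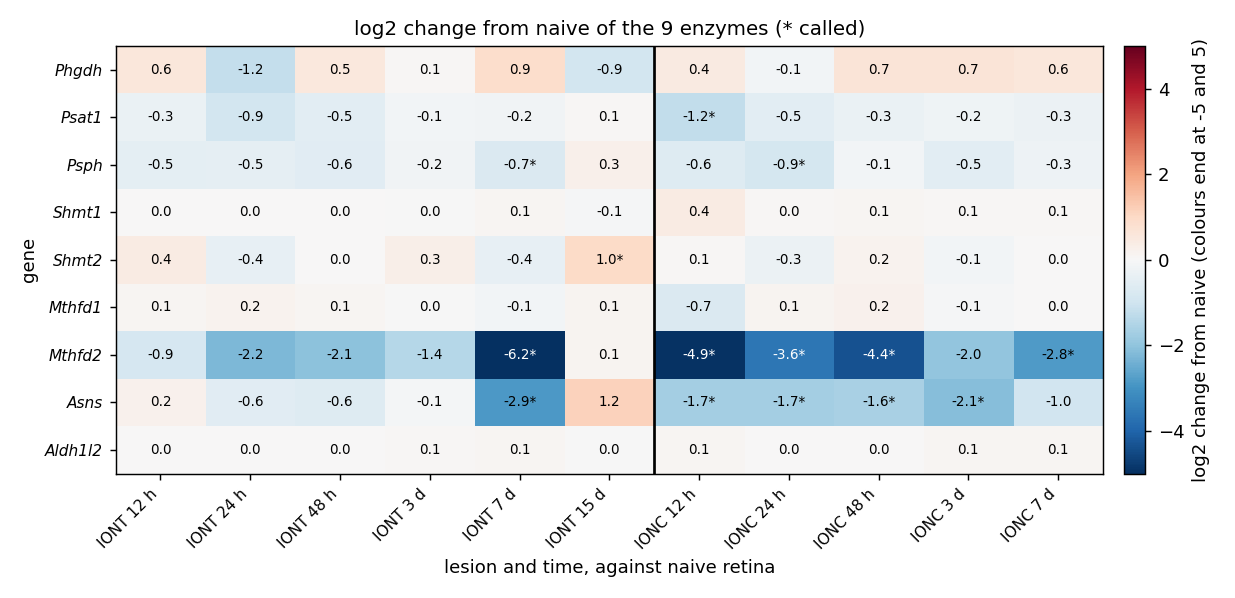
log2 change from naive (colour and number) of each enzyme (rows) in each injured group (columns, IONT left of the line and IONC right), with an asterisk for changes that were called. Calls gather in Mthfd2 and Asns, with 3 at IONT 7 d (Mthfd2 -6.2, Asns -2.9, Psph -0.7) and none of the 9 at IONT 12 h to 3 d.

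Counted over the 9 enzymes, 0 were called at 12 h, 24 h, 48 h and 3 d after IONT, where 1.30%, 2.59%, 2.62% and 2.00% of all 31042 probe sets were. At 7 d after IONT 3 were lower (Mthfd2, Asns and Psph), beside 1.46% of all probe sets called, and at 15 d 1 was higher (Shmt2), beside 4.03%. After IONC 3 were lower at 12 h (Mthfd2, Asns and Psat1), beside 5.65% of all probe sets, and 3 at 24 h (Mthfd2, Asns and Psph), beside 1.15%. At 48 h 2 were lower (Mthfd2 and Asns), beside 1.60%, at 3 d 1 (Asns), beside 0.535%, and at 7 d 1 (Mthfd2), beside 0.741%. No enzyme was called higher after IONC. The median change of the 9 was -0.64 at 12 h after IONC and -0.29 at 24 h, against -0.04 and 0.03 for all genes, and it was -0.18 at 7 d after IONT against 0.05. All comparisons with naive share the same 5 naive arrays. The counts at 12 h also rest on arrays that the enzymes were picked on.

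The difference between the lesions at 12 h is the one the enzymes were picked on. IONC minus IONT was -4.07 ± 0.56 for Mthfd2 and -1.90 ± 0.36 for Asns. Without IONC 12 h replicate 2 these were -3.34 and -1.58, and the IONC arrays still lay wholly below the IONT arrays. For Psat1 it was -0.88 ± 0.27 with and -0.32 without that array, for Mthfd1 -0.83 ± 0.49 and 0.32, and for Shmt1 0.39 ± 0.16 and 0.00, so much or all of these 3 differences came from that array. Shmt2 (-0.32 ± 0.15 and -0.40), Psph (-0.15 ± 0.17 and 0.16), Phgdh (-0.10 ± 0.39 and -0.41) and Aldh1l2 (0.09 ± 0.05 and 0.00) differed little. Of the 9, Mthfd2 and Asns lay past the thresholds used elsewhere, beside 0.934% of all probe sets, and Asns did not without that array. Nothing is read from this count, since the enzymes were picked on the difference.

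**Figure D3:**
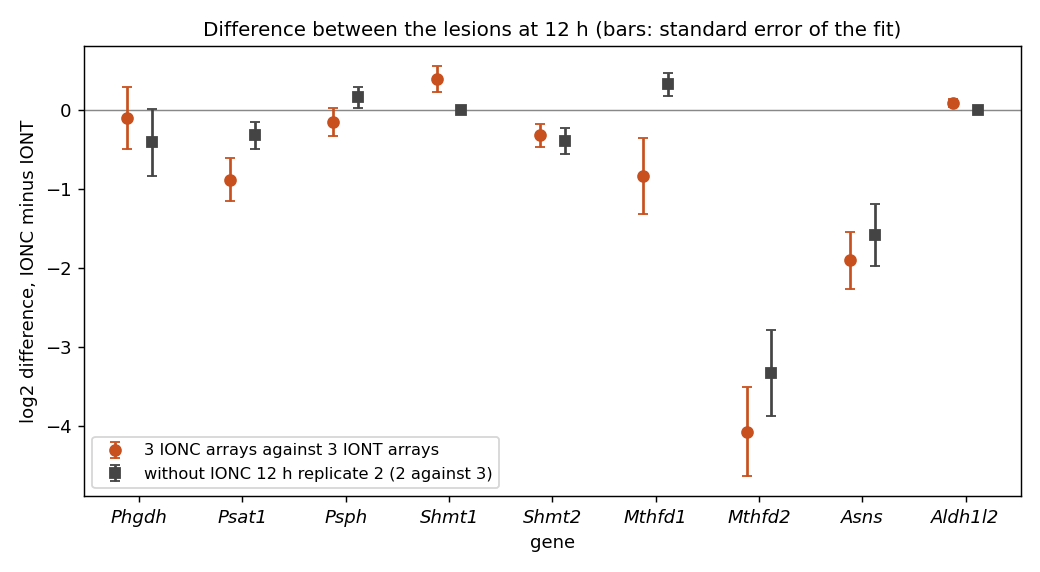
log2 difference IONC minus IONT at 12 h (vertical axis) for each enzyme (horizontal axis), from all 3 IONC arrays (circles) and without IONC 12 h replicate 2 (squares), with bars of 1 standard error of the fit. Mthfd2 (-4.07 and -3.34) and Asns (-1.90 and -1.58) lie far below 0 both ways, and Mthfd1 turns from -0.83 to 0.32.

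At 24 h to 7 d the 2 differences that were called had opposite signs. None of the 9 enzymes was called different at 24 h or 48 h, where 6.16% and 0.103% of all probe sets were, and Mthfd2 was lower after IONC by -1.36 ± 0.63 and -2.30 ± 0.56 without passing (adjusted p = 0.168 and 0.115). At 24 h the IONT arrays belong to the second array set and the IONC arrays to the first. The 24 h values and share therefore also set the array sets against each other, unlike those at 48 h. At 3 d 1 enzyme was called, beside 5.00% of all probe sets: Asns was lower after IONC by -2.06 ± 0.41 (adjusted p = 0.0017), with 9.39 to 9.60 against 11.13 and 11.94. The 2 IONT arrays of 3 d belong to the second array set and the IONC arrays to the first, and with array set in the model the difference was -1.54 and not called (adjusted p = 0.397). At 7 d 1 enzyme was called, beside 0.0290% of all probe sets, now in the opposite direction: Mthfd2 in IONC retinas exceeded that in IONT retinas by 3.40 ± 0.56 (adjusted p = 0.00913). That call was close to the threshold and was kept in only 16 of 47 alternatives, in all of which the difference stayed positive. Asns was higher after IONC at 7 d by 1.93 ± 0.36 without passing (adjusted p = 0.0332). Without IONC 7 d replicate 1 both differences grew and both were called, 4.17 for Mthfd2 (adjusted p = 0.000245) and 2.65 for Asns (adjusted p = 2.43e-06).

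Over the 12 group means, the profiles of Mthfd2 and Asns had a Pearson r of 0.873, and 0.871 without IONC 12 h replicate 2. Psph (0.711) and Shmt2 (0.737) ran with Asns more loosely, and Phgdh ran against it (-0.577). Among 6351 other genes whose group means spanned at least 1 on the log2 scale, the 3 most like Mthfd2 were Herpud1 (r = 0.961), a gene of endoplasmic reticulum protein disposal, Slc38a2 (0.953), a carrier of small neutral amino acids, and Iars1 (0.950), the isoleucyl-tRNA synthetase. The 3 most like Asns were also tRNA synthetases, Mars1 (0.981), Yars1 (0.973) and Aars1 (0.968), which load methionine, tyrosine and alanine. The 3 most like Psat1 were Lrrc49 (0.937), Man2a2 (0.930) and Eif2b3 (0.915), and the 3 most like Phgdh were Ass1 (0.964), Tent5c (0.947) and Akr1b1 (0.934). These r values describe 12 means that mix both array sets, and carry no test.

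Several of the genes most like Mthfd2 and Asns held a promoter motif that the enzymes' own windows lacked. The motif TGATGNAA, the core of the amino acid response element, was looked for on both strands in windows from 250 bases before to 50 bases after the RefSeq start (GRCr8). It was present in 3.98% of all 33469 windows and in 0 of the 7 enzymes with a window. Among 5 of the genes named as most like Mthfd2 and Asns it was present in Herpud1, Iars1, Mars1 and Yars1 and absent from Slc38a2. TGACGTCA, the cyclic AMP response element (1.83% of windows), and TGACTCA, the AP-1 site (4.63%), were also in 0 of the 7. Of the stress regulators looked at after their values had been seen, Chac1 and Trib3 held TGATGNAA and Ddit3 held TGACTCA. Sesn2 held none of the 3 motifs, and no match was recorded for Atf3. The window of Asns starts 555 bases inside the outer end of its gene and that of Psat1 779 bases inside, so other start sites of these genes were not covered. The matches in Herpud1, Iars1, Mars1 and Yars1 are shown with the motif or its reverse complement in capitals.
Herpud1, chr19:10614873-10614902, minus strand: accacggcgggTTGCATCAgcccgcaccct
Iars1, chr17:15193658-15193687, minus strand: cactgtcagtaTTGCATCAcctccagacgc
Mars1, chr7:65023752-65023781, minus strand: gcccgttccggTTGCATCAgcgtgggctcc
Yars1, chr5:146820190-146820212, plus strand: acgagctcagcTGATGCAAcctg
These are matches of letters, not binding sites, and a missing match says only that the letters are not in that window.

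Other genes of the same pathways were read from lists of related genes. Counts from every list, here and below, stand beside the shares of all probe sets called. After IONT these were 1.30%, 2.59%, 2.62%, 2.00%, 1.46% and 4.03% from 12 h to 15 d. After IONC they were 5.65%, 1.15%, 1.60%, 0.535% and 0.741% from 12 h to 7 d. No list was tested against these shares. Of 18 measured genes of serine and glycine use, Slc1a4, a neutral amino acid carrier that takes up serine, was called lower at 24 h to 7 d after IONT and at all 5 times after IONC (log2 change -2.36 at 7 d after IONT and -1.98 at 12 h after IONC). With array set in the model its call at 3 d after IONT was lost and the others stood. No other gene of that list was called lower except Dld at 15 d after IONT, where Sardh was called higher, and neither call stood with array set in the model. Slc1a5, another carrier of neutral amino acids, was called higher at 12 h after IONC (2.04), and its change at 12 h after IONT was 1.41 without passing (adjusted p = 0.108). Gldc, a subunit of the glycine cleavage system, was called higher at 12 h and 48 h after both lesions (1.11 after IONT and 1.26 after IONC at 12 h), but not at 48 h after IONT with array set in the model. Of 18 measured folate genes, Tyms, the thymidylate synthase, was lower at 48 h after IONT and at 24 h and 48 h after IONC (-1.45, -1.37 and -1.26), and Slc19a1, a folate carrier, was higher at 12 h after IONC (1.09). Fpgs, which adds glutamate to folate, was higher at 15 d after IONT (1.05). Of 14 genes of asparagine, aspartate and glutamine, 4 were lower at 12 h after IONC (Glul, Got1, Gpt2 and Aldh18a1), 1 of them (Gpt2) without IONC 12 h replicate 2. After IONT 3 were lower at 12 h and again at 48 h (Glul, Got1 and Gpt2), of which the calls of Got1 were lost with array set in the model, and 2 at 7 d (Gpt2 and Aldh18a1). Gpt2, a mitochondrial alanine transaminase, was lower at all 5 times after IONC, with log2 changes of -2.14 to -1.84. Aldh18a1, which starts proline synthesis, was also lower at 24 h and 3 d after IONC, though not with array set in the model. The genes of this list called higher were Aspa and Asrgl1 at 15 d after IONT and Asl at 48 h after IONC, and none of the 3 calls stood with array set in the model. Glul is also a marker of Müller glia. Of 6 such markers, 2 were called lower at 12 h after IONT (Glul and Rlbp1), and 3 at 48 h after IONT and at 12 h after IONC (Glul, Car2 and Rlbp1). With array set in the model only Glul was called at 12 h and 48 h after IONT, while the 3 at 12 h after IONC stood. The part of those cells in these values was not tested.

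Among the 18 measured tRNA synthetases, 7 were lower at 7 d after IONT, where Mthfd2 and Asns were lowest, and 0 at 12 h after IONT. Cars1 was lower at 24 h and Iars1 and Cars1 at 48 h after IONT, but not with array set in the model. After IONC 10 were lower at 12 h, 4 at 24 h (Yars1, Iars1, Cars1 and Mars1) and 6 at 48 h, then 5 at 3 d (those 4 and Aars1), and at 7 d 0. Without IONC 12 h replicate 2 the 10 at 12 h became 4 (Yars1, Iars1, Cars1 and Mars1), while the later counts became 8, 8, 9 and 5 (at 7 d Yars1, Tars1, Iars1, Cars1 and Mars1). With array set in the model the count was 5 at 12 h (Yars1, Tars1, Iars1, Cars1 and Mars1), 3 at 24 h (Iars1, Cars1 and Mars1) and 3 at 48 h (Tars1, Iars1 and Cars1), and at 3 d and 7 d it was 0. Their median change was -0.71 at 7 d after IONT and -0.77 at 12 h after IONC, against 0.05 and -0.04 for all genes. At 7 d after IONT the log2 change of Iars1 was -2.33 and that of Mars1 -1.94, and at 12 h after IONC they were -1.86 and -1.61. Of 17 regulators of the amino acid stress response, 6 were lower at 12 h after IONC with or without replicate 2 (Atf4, Ddit3, Trib3, Cebpg, Chac1 and Sesn2, of which Cebpg was not with array set in the model), and 3 at 7 d after IONT (Atf4, Trib3 and Chac1), which became 7 without that array. Atf4, Trib3 and Chac1 were also lower at 24 h and 48 h after IONC (Chac1 not at 48 h with array set in the model). In the fit of all arrays Atf4 was also lower at 24 h (with Eif4ebp1) and 3 d after IONT. At 7 d after IONC Atf4 and Chac1 were lower. In the same list 3 were called higher at 12 h after IONC (Nupr1, Myc and Cebpb, the last not with array set in the model) and 2 at 12 h after IONT (Nupr1 and Cebpb). Cebpb was also higher at 48 h after IONT and at 24 h after IONC. Nupr1 was higher at 48 h after IONC and Atf5 at 15 d after IONT. Whether these further calls, lower or higher, stand with array set in the model or without IONC 12 h replicate 2 is not given here. The median change of the 17 was -0.73 at 12 h after IONC and -0.52 at 7 d after IONT. Chac1, a glutathione-degrading enzyme induced by Atf4, had log2 changes of -4.70 at 12 h after IONC and -3.99 at 7 d after IONT, and Trib3, a pseudokinase of the same response, of -3.72 and -3.09. Those of Atf4 itself were -1.09 and -0.67. The log2 changes of Nupr1, another stress gene, were 3.54 at 12 h after IONC and 3.71 at 12 h after IONT, and those of Cebpb, a transcription factor of the same family as Cebpg, were 1.87 and 2.39. At 15 d after IONT, where Mthfd2 was within the naive range and Asns above it, Chac1 (0.38), Trib3 (0.40) and Iars1 (-0.16) were not called.

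**Figure D4:**
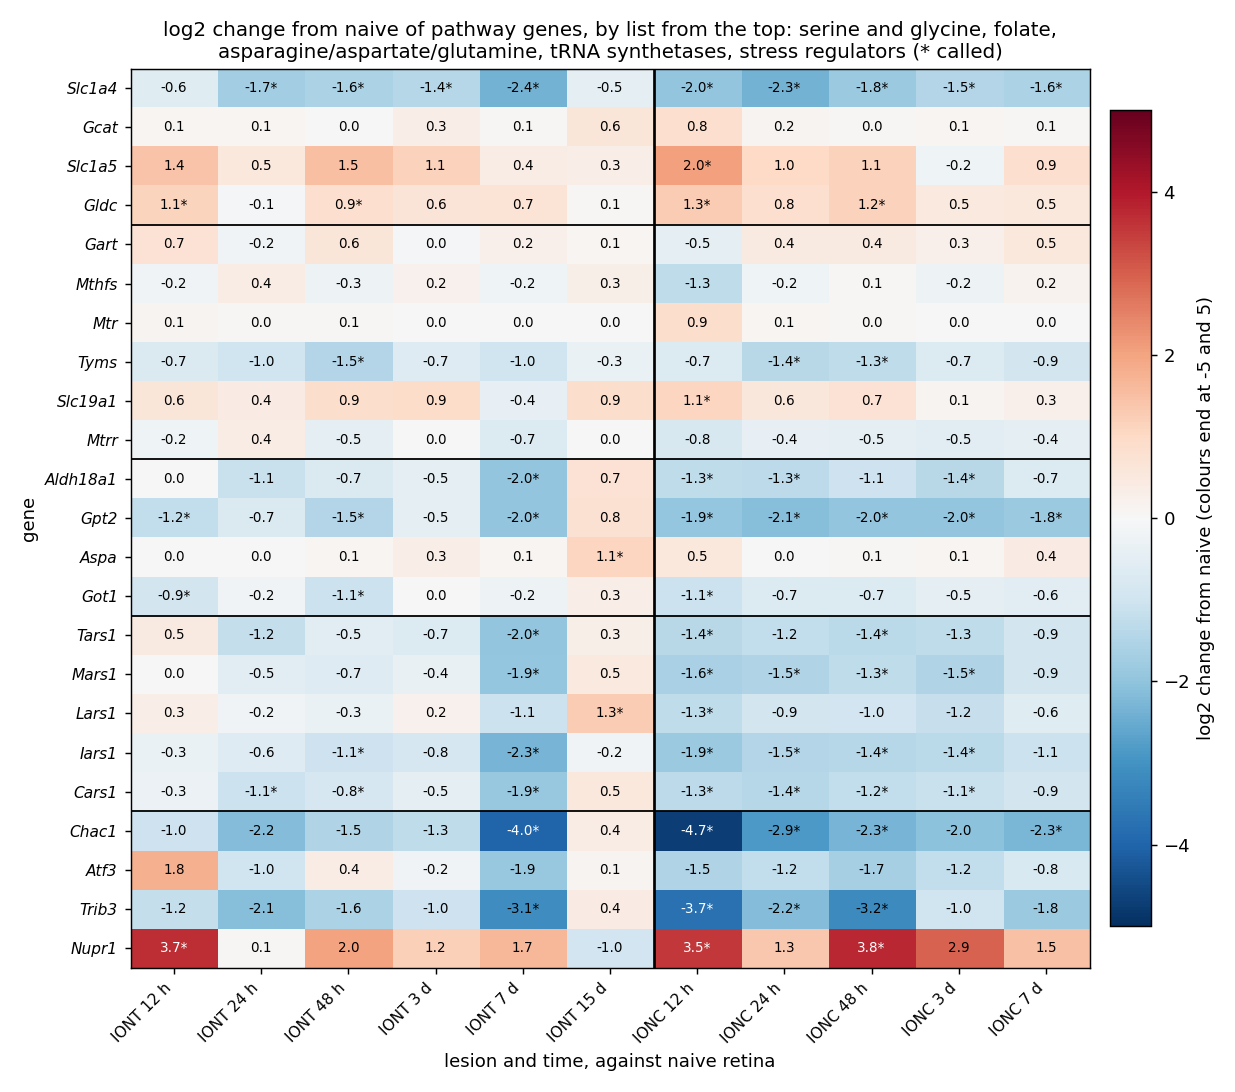
log2 change from naive (colour and number) of the pathway genes named by the rule (rows, grouped by list) in each injured group (columns), with an asterisk for changes that were called. Slc1a4, Gpt2, the tRNA synthetases, Chac1 and Trib3 are low at IONT 7 d and after IONC, and at IONT 15 d none of them is called lower and Lars1 is called higher (1.3), though not with array set in the model.

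The ganglion cell markers were low together with Mthfd2 and Asns in some groups and not in others. Their mean signal ran from 8.96 to 9.14 in the naive arrays and from 8.90 to 9.02 at 24 h after IONC, where both enzymes were called lower. At 7 d after IONT, where both enzymes were lowest, it was 6.09 to 6.36, with 6 of 7 markers called lower. It was 5.27 to 5.54 at 15 d after IONT, where Mthfd2 was at 9.05 and 9.14 and Asns at 12.81 and 12.74.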

How the data were processed

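The deposited values were log2 signals per probe set of the rat RAE230.2 array. The authors made them from the scans of 35 arrays with GCRMA (sequence-based background correction, quantile normalization and summary of the probes). The study tested them with limma at each time point. It also used maSigPro for regulation over time, which was not run here. Here limma 3.58.1 in R 4.3.3 was run on the deposited log2 values as they are, with 1 coefficient per group over all 35 arrays. Of 31099 probe sets, 57 controls were left out and 31042 tested, with Benjamini-Hochberg adjustment within each comparison, and calls needed an adjusted p under 0.01, B above 0 and at least 1.2-fold. Each array is a separate pool of 4 retinas, and the p-values reflect how far such pools differ. The number of arrays limits the precision, which for groups of 2 is low.

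The enzymes and gene lists were chosen with earlier results of these data known. All 9 enzymes are named, with the 3 genes of each list that differ most between the lesions at 12 h and the 3 with the largest mean change, the 3 genes most like Mthfd2, Asns, Psat1 and Phgdh, and genes of counts of 5 or fewer. Genes were named through the platform annotation, of which 20826 probe sets carry 1 symbol. Promoter windows came from RefSeq (GRCr8), matched by symbol for 7 of the 9, not Mthfd1 and Aldh1l2. The promoter of 1 further gene is not reported here. Array sets were split at a β-actin gap of 2.4. The fit was tested on simulated data first. Equal replicate numbers did not pair arrays: correlations of deviations ran from -0.10 to 0.14 over 43 pairs.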

Additional observations from a re-analysis of the deposited data

Results flagged for a closer look

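Apart from the 12 h difference, on which the enzymes were picked, 2 differences between the lesions passed the test. IONC minus IONT was 3.40 for Mthfd2 at 7 d and -2.06 for Asns at 3 d. The 7 d difference of Mthfd2 sets IONC arrays of 4.57, 6.58 and 7.21 against IONT arrays of 2.41 to 2.90, which lie at the lower end of the array. The 3 d difference of Asns sets arrays of both array sets against each other, and whether it comes from the array set was not tested beyond the model with that term.

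Aldh1l2 had 1 naive array apart from the other 4, replicate 1 at 2.19 in a group of 2.17 to 2.19. About 1 group in 20 is set apart this way by chance, and the signal is at the lower end of the array.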

How the results depend on the processing

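After IONT the 9 enzymes gave 4 calls of 54, and 9 at an adjusted p under 0.05 without the B threshold, 11 in a separate fit for each lesion, 12 with array weights, 7 with cyclic loess and 2 against naive arrays of the same array set (an alternative chosen after seeing the data). After IONC they gave 10 of 45, and 3 in the separate fit, 4 with the replicate block, 6 with array set in the model and 4 against naive arrays of the same set. Only naive arrays have replicate numbers 4 and 5, so the replicate block in effect leaves these arrays out. For IONC the last 3 settings thus give the same log2 change (Asns at 24 h -1.48 in each). They differ only in the spread and are not separate checks. At 12 h, where the difference between the lesions chose the enzymes and its count is a description, the 2 past the thresholds became 1 with cyclic loess and 1 with array set in the model and IONC 12 h replicate 2 left out. The 2 at 24 h to 7 d became 1 with the replicate block, 1 with median-centred arrays and 1 with array set in the model. Leaving out single arrays gave 3 to 9 calls after IONT, 8 to 11 after IONC, 1 to 3 at 12 h and 1 to 4 at 24 h to 7 d. The 3 at 12 h came without IONC 12 h replicate 3. The high counts after IONT were 9 without IONC 12 h replicate 2 and 7 without IONC 7 d replicate 1, and the 4 at 24 h to 7 d came without IONC 7 d replicate 1. The causes were not tested.

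No called value of the 9 enzymes changed sign in an alternative, whereas values that were not called did, among them those of Mthfd1 at 12 h after IONC and Phgdh at 15 d. Of 16 called values, the 12 h difference left aside, 5 were kept in every alternative: Mthfd2 at IONT 7 d and at IONC 12 h, 24 h and 48 h, and Asns at IONT 7 d. The replicate block, which in effect leaves out naive replicates 4 and 5, kept 8 of the 16. Each enzyme has 1 probe set, so the alternatives on the choice of probe set were not run. Depth has no counterpart here: Shmt1 and Aldh1l2, and Mthfd2 at 7 d after IONT, were limited by signal close to background.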
